A study of Mus musculus with 4 samples.

Results

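The genes described here are the small heat shock proteins and the stress-inducible chaperones that work with them, taken by their known function: the small heat shock proteins Hspb1, Hspb6, Hspb7, Hspb8 and Cryab, the inducible HSP70 genes Hspa1a and Hspa1b, the HSP110 gene Hsph1, the HSP40 gene Dnajb1, and the co-chaperone Bag3. The genes and the comparison lists were chosen with earlier results of these data known. Comparisons with all genes or other lists below therefore describe and do not test. Probes were taken where the array names them by a RefSeq or Ensembl transcript of one of these genes. This gave 11 probes for 9 of the 10 genes, out of 21657 genes with such a probe. Hspb7 has 1 probe printed in 10 spots, Cryab and Hsph1 have 2 probes each, and the other 6 have 1 probe in 1 spot. No probe matched Hspa1b. All 9 genes were well above background on all 4 arrays.

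Heat shock proteins are chaperones, proteins that bind unfolded or damaged proteins and keep them from aggregating. The small heat shock proteins hold misfolded clients without using ATP, and in heart muscle they sit on Z-discs, actin and desmin filaments. The HSP70 machine refolds such clients with ATP, helped by HSP40 co-chaperones of the DNAJ family, by HSP110 proteins that exchange its nucleotide, and by BAG proteins that do the same or hand the client on to degradation. The stress-inducible genes of the system are transcribed under heat shock factor 1, which binds repeats of inverted GAA units.

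The RNA came from hearts of male mice that had undergone transverse aortic constriction (TAC), a surgery that loads the left ventricle with pressure, or a sham operation. The arrays were sham at 2 weeks, TAC at 2 weeks, sham at 8 weeks and TAC at 8 weeks, with an age of 10 weeks at the earlier and 16 weeks at the later time by the labels. The methods name C57BL/6J mice and an age at surgery above the one these labels imply. Each array carried RNA mixed from 4 to 6 mice, with 1 array per condition, so the spread between mice was not measured and no p-value was computed. All 4 arrays lay on 1 slide read in 1 scan. Signals are given as multiples of the array's own 75th percentile, which was between 206.0 and 248.5 intensity units, and they can be compared between arrays for 1 probe but not between probes. Among probes above that percentile, the log2 ratio of 2 single spots on different arrays had an SD of 0.07 (170 probes with 10 spots). It was 0.14 between 0.25 and 1 times the percentile, and this spot noise is the error given below. The ratio between the sham arrays also shows how far 2 pools of unconstricted hearts lay apart, although those pools differ by 6 weeks of age.

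The labels were checked on genes of the hypertrophic response. Myh7, Acta1, Nppa and Nppb were between 1.03 and 3.09 higher on the log2 scale after TAC at 2 weeks and between 1.94 and 3.69 higher at 8 weeks, while Myh6 had -0.19 at both times and Atp2a2 had -0.45 and -0.37. All 10 cardiomyocyte markers were well above background on every array, while 5 of 8 skeletal muscle markers, Myh1, Myh2, Myh4, Actn3 and Mylpf, were on none. The cardiomyocyte markers had a median log2 ratio of -0.12 at 2 weeks and -0.16 at 8 weeks, and their summed signal ran from 9117 to 10824 times the 75th percentile over the 4 arrays. The 8 fibroblast markers, all well above background on every array, had medians of 0.89 and 0.85, with a summed signal of 208 and 232 in the sham hearts and of 287 and 339 after TAC. The Dcn probe alone made up 142.5 and 167.2 of these sums in sham and 161.7 and 203.4 after TAC. All 8 fibroblast markers were above 0 at 2 weeks and 7 at 8 weeks. Pdgfra (0.31 and 0.40), Dcn (0.18 and 0.28) and Tcf21 (0.07 and -0.55) lay well below the medians. Medians of the 7 macrophage markers were 0.31 and 0.40, with 6 above 0 at each time, and those of the 6 smooth muscle and pericyte markers 0.32 and 0.15, with 5 above 0. All of them were well above background on every array, with summed signals of 187 to 195 and of 60.7 to 70.6. The Itgam probe alone made up 144.3 to 150.9 of the macrophage sums, and its log2 ratios were -0.02 and -0.04. In such bulk RNA, fewer cells of a type and less RNA per cell cannot be told apart, and the part of cell makeup in the ratios below was not tested.

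At 8 weeks all 9 measured genes were higher after TAC than in sham hearts. Their median log2 ratio was 0.49, beside a median of -0.01 over the 14581 genes measured on both arrays, of which 48.1% were above 0. None was over 2-fold higher, compared with 1.81% of all genes, and none over 2-fold lower, compared with 0.878%. Over 1.5-fold higher were 3 of the 9, Hspb1, Hspb6 and Hspb7, compared with 5.36% of all genes, and none was over 1.5-fold lower, compared with 3.98%. At 2 weeks 6 of 9 were above 0 and the median was 0.15, beside -0.01 over 14419 genes, of which 48.4% were above 0. None passed 2-fold in either direction, where 0.902% of all genes were higher and 0.548% lower. None passed 1.5-fold either, where 4.17% were higher and 2.55% lower.

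**Figure D1:**
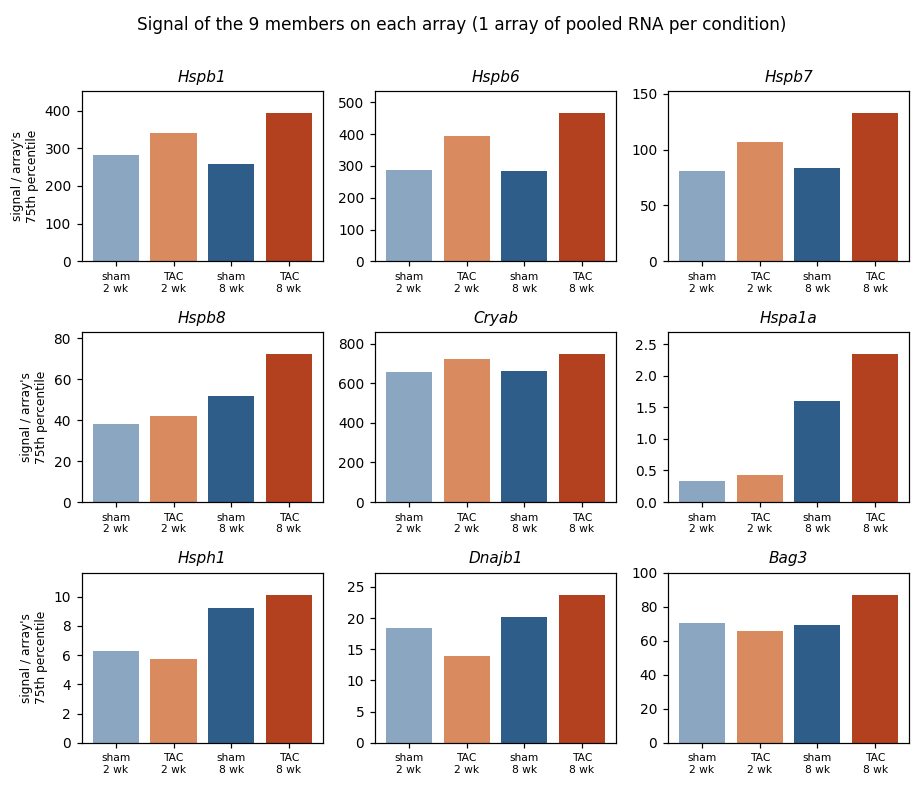
Signal of the 9 measured genes on each of the 4 arrays, as multiples of the array's 75th percentile, with 1 bar per array of pooled RNA and an axis of its own for each gene. Hspb1, Hspb6, Hspb7 and Cryab were higher on both TAC arrays than on both sham arrays, whereas Hspa1a was higher on both 8-week arrays (1.60 and 2.34) than on both 2-week arrays (0.340 and 0.431).

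The promoters are shown because several of these genes are textbook targets of heat shock factor 1. RefSeq promoter windows of GRCm38.p6, from 250 bases before to 50 after the start, were searched without mismatch for 2 neighbouring inverted units, GAANNTTC or TTCNNGAA, and for 3, GAANNTTCNNGAA or TTCNNGAANNTTC, on both strands. Each 2-unit form is its own reverse complement, the 3-unit forms are each other's, and each 3-unit form contains both 2-unit forms. A window was given for 9 of the 10 genes, all but Cryab. The 2-unit form was found for 7 of these 9 genes, Hspb1, Hspb6, Hspb8, Hspa1a, Hspa1b, Hsph1 and Bag3, and not for Hspb7 and Dnajb1, while 17.0% of all 27025 genes had it in a window. Hspa1a and Hspa1b, both among the 7, were 98.8% identical over the 250 bases before the start, so their matches are not separate. The 3-unit form was found for Hsph1 alone, against 0.662% of all genes. The stretches of 4 genes follow so that the units can be compared, with capitals for the matched letters.

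Hspb1 upstream, chr5:135887787-135887844, plus strand: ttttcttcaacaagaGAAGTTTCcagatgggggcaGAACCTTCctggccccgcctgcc
Hspb6 upstream of its second start, chr7:30553166-30553203, plus strand: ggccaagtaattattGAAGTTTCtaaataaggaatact
Hspa1a upstream, chr17:34972238-34972275, minus strand: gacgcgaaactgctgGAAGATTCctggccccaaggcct
Hsph1 upstream, chr5:149636347-149636384, minus strand: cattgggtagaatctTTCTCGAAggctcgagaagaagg
Hsph1 3-unit form after the start, chr5:149636280-149636308, minus strand: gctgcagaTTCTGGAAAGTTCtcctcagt

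Hspb1 held the unit at 2 places, -117 to -110 and -97 to -90 from the start. The letters matched in Hspb6, GAAGTTTC, were those of the first place in Hspb1. In Hspa1a the middle letters differed and the unit lay at -104 to -97. The 3-unit form of Hsph1 lay after the start, from 15 to 27 bases downstream of one annotated start and from 36 to 48 of the other. In Hspb8 and Bag3 the matched letters were again GAAGTTTC and lay after the start. A match describes letters in a window and was not linked to the ratios.

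For Hspb6, Hspb7 and Hspb1 both TAC arrays lay above both sham arrays. The sham arrays differed by -0.02, 0.06 and -0.13 on the log2 scale. Cryab, described below, had this order too, with smaller ratios of TAC over sham. Flnc, Des and Tgm2, also described below, had the order as well. The share of all genes with it was not counted. Hspb6 encodes HSP20, a small chaperone that protein kinase A phosphorylates in cardiomyocytes (GRCm38, chr7:30552535-30555443, plus strand, 3 exons). Its signal was 288 in sham and 395 in TAC hearts at 2 weeks, and 284 in sham and 465 in TAC hearts at 8 weeks. The TAC hearts were therefore 1.37-fold higher at 2 weeks (log2 ratio 0.46) and 1.64-fold higher at 8 weeks (0.71), while the sham arrays differed by -0.02. Among the 14581 genes measured at 8 weeks, 542 had a larger log2 ratio than Hspb6.

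Hspb7, also called cvHsp, is a small heat shock protein of heart and skeletal muscle that binds actin and filamin C (GRCm38, chr4:141420779-141425310, plus strand, 3 exons). Its signal was 80.7 in sham and 106.8 in TAC hearts at 2 weeks, and 83.9 in sham and 132.4 in TAC hearts at 8 weeks. This corresponds to 1.32-fold at 2 weeks (log2 ratio 0.41) and 1.58-fold at 8 weeks (0.66). Its 10 spots allow the noise within an array to be seen directly. At 2 weeks the lowest spot on the TAC array, 99.0, lay above the highest on the sham array, 85.0, and at 8 weeks the lowest on the TAC array, 129.6, lay above the highest on the sham array, 86.4. Spot by spot, the log2 ratio ran from 0.37 to 0.47 at 2 weeks and from 0.61 to 0.73 at 8 weeks, and the spot ratios of the 2 times did not overlap. The spots of the sham arrays gave ratios from 0.00 to 0.11 between the times. These spots repeat 1 pool of RNA per condition and carry no information on the spread between mice.

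**Figure D2:**
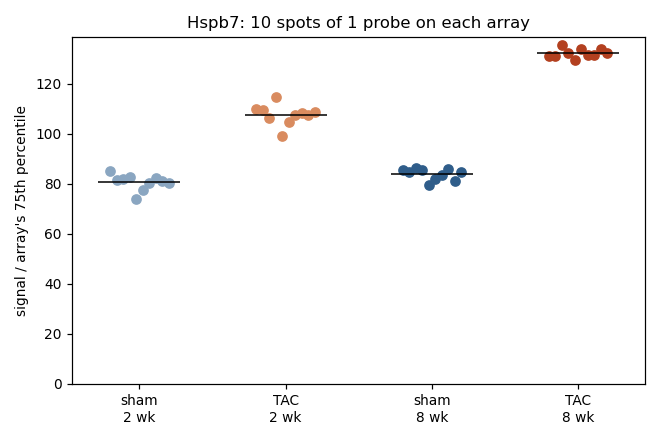
The 10 spots of the Hspb7 probe on each array, as multiples of the array's 75th percentile, with a line at the mean of the log2 values. The spots of each TAC array lie above all spots of both sham arrays, from 99.0 to 114.9 at 2 weeks and from 129.6 to 135.6 at 8 weeks.

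Hspb1 encodes HSP25, the mouse counterpart of human HSP27, which caps actin filaments and is a target of the p38 kinase pathway (GRCm38, chr5:135887919-135889563, plus strand, 3 exons). Its signal was 282 in sham and 340 in TAC hearts at 2 weeks, and 257 in sham and 393 in TAC hearts at 8 weeks. The TAC hearts were 1.21-fold higher at 2 weeks (log2 ratio 0.27) and 1.53-fold higher at 8 weeks (0.61). The sham array at 8 weeks was the lowest of the 4, with a log2 ratio of -0.13 to that at 2 weeks, and the TAC arrays themselves differed by 0.21.

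Hspb8, or HSP22, forms a complex with BAG3 that sorts damaged filamin and other clients toward autophagy (GRCm38, chr5:116408491-116422864, minus strand, 3 exons). Its signal was 38.2 in sham and 42.3 in TAC hearts at 2 weeks, and 51.6 in sham and 72.4 in TAC hearts at 8 weeks. Both 8-week arrays lay above both 2-week arrays. TAC over sham gave 1.11-fold at 2 weeks and 1.40-fold at 8 weeks (log2 ratios 0.15 and 0.49), and the sham arrays differed by 0.44, about as much as TAC and sham at 8 weeks.

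Cryab encodes αB-crystallin, the chaperone of desmin, mutations of which cause desmin-related cardiomyopathy. Its brighter probe gave 660 in sham and 725 in TAC hearts at 2 weeks, and 662 in sham and 749 in TAC hearts at 8 weeks. TAC over sham was 1.10-fold (log2 ratio 0.14) at 2 weeks and 1.13-fold (0.18) at 8 weeks. The second Cryab probe gave 0.14 at 2 weeks and 0.28 at 8 weeks. No spot was marked as saturated. Hspb2, the small heat shock gene that lies within the annotated span of Cryab on the opposite strand (GRCm38, chr9:50751072-50752354 within chr9:50745951-50756636), was slightly lower after TAC, with log2 ratios of -0.19 and -0.11 and signals between 56.1 and 67.0.

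For Hspa1a, Hsph1 and Dnajb1, as for Hspb8, both 8-week arrays lay above both 2-week arrays. For Dnajb1 this order rests on sham arrays that differed by 0.12 on the log2 scale. The share of all genes with this order was not counted. Of all genes, 56.0% were higher on the later sham array and 54.5% on the later TAC array. Hspa1a encodes the inducible HSP70 that is expressed at a low level in unstressed tissue (GRCm38, chr17:34969359-34972156, minus strand). Its signal was 0.340 in sham and 0.431 in TAC hearts at 2 weeks, and 1.60 in sham and 2.34 in TAC hearts at 8 weeks. The sham arrays differed 4.71-fold (log2 ratio 2.24), whereas TAC over sham was 1.27-fold at 2 weeks (0.34) and 1.46-fold at 8 weeks (0.55). Of the 9 genes it alone was over 2-fold higher on the later sham array, compared with 0.341% of the 14355 genes measured, and 8 genes had a larger ratio. None of the 9 was over 2-fold lower between the shams, compared with 0.23% of all genes. At 1.5-fold the count was again Hspa1a alone, compared with 1.62% of genes higher and 1.21% lower. With normexp background correction the ratio between the shams was 1.62 on the log2 scale, and that of TAC over sham at 2 weeks was 0.14. The 2-week signals lie in the range where the log2 ratio of 2 single spots on different arrays had an SD of 0.14.

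The Hspa1a stretch is identical in Hspa1b, at chr17:34959320-34959357. The genes lie 10120 bases apart on the minus strand of chromosome 17. Their 250 bases before the start were 98.8% identical and their coding sequences 99.4% identical, with 11 of 1926 aligned positions different, whereas the parts after the coding sequence were 44.1% identical. The array names the probe by a transcript of Hspa1a (1 exon, 2798 bases). The files hold no probe sequence, so whether it also reads Hspa1b was not tested, and the values above are those of a probe labelled Hspa1a. Hspa1l, another HSP70 gene, known mainly from testis, lies 546 bases away on the opposite strand. It had signals of 0.999 and 1.42 in sham and TAC hearts at 2 weeks and of 0.914 and 2.21 at 8 weeks. TAC hearts thus exceeded sham hearts 1.43-fold at 2 weeks and 2.42-fold at 8 weeks, and unlike Hspa1a the later sham was not higher (log2 ratio -0.13).

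Hsph1, the HSP110 partner that exchanges the nucleotide of HSP70, separated the times in the same direction with both of its probes (GRCm38, chr5:149616843-149636498, minus strand). The brighter gave 6.31 in sham and 5.72 in TAC hearts at 2 weeks, and 9.24 in sham and 10.1 in TAC hearts at 8 weeks. The sham arrays differed by 0.55 on the log2 scale for this probe and by 0.74 for the other. TAC over sham was -0.14 at 2 weeks and 0.13 at 8 weeks for the brighter probe, and 0.03 and 0.19 for the dimmer one, so its direction at 2 weeks was not the same for both probes.

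Dnajb1 encodes HSP40, which delivers clients to HSP70 and stimulates its ATP hydrolysis (GRCm38, chr8:83608175-83612653, plus strand, 3 exons). Its signal was 18.5 in sham and 14.0 in TAC hearts at 2 weeks, and 20.1 in sham and 23.7 in TAC hearts at 8 weeks. The TAC array was thus the lowest of the 4 at 2 weeks and the highest at 8 weeks, with log2 ratios of -0.40 and 0.24, while the sham arrays differed by 0.12. At 2 weeks this was the lowest ratio of the 9 genes, with 13579 of 14419 genes above it.

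Bag3 encodes the co-chaperone that links HSP70 and HSPB8 to autophagy at the Z-disc, and its loss causes cardiomyopathy (GRCm38, chr7:128523583-128546981, plus strand, 4 exons). Its signal was 70.5 in sham and 65.5 in TAC hearts at 2 weeks, and 69.5 in sham and 87.1 in TAC hearts at 8 weeks. The first 3 lay within 0.11 of each other on the log2 scale, close to the spot noise, and only the TAC array at 8 weeks stood apart, 1.25-fold above its sham (log2 ratio 0.33).

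**Figure D3:**
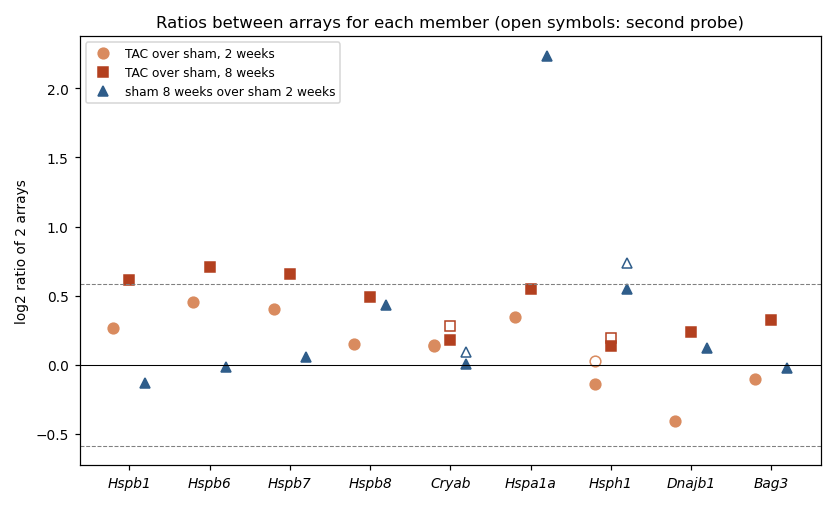
Log2 ratios between arrays for each measured gene: TAC over sham at 2 weeks (circles), TAC over sham at 8 weeks (squares) and sham at 8 weeks over sham at 2 weeks (triangles), with open symbols for the second probe of Cryab and Hsph1 and dashed lines at 1.5-fold. The square lies above the circle for all 9 genes, for Cryab by 0.04, less than the spot noise, and for Hspa1a, Hsph1 and no other gene the triangle lies above both.

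The log2 ratio of TAC to sham was larger at 8 than at 2 weeks for all 9 genes, by 0.04 (Cryab) to 0.64 (Dnajb1), with a median difference of 0.27. For Cryab this difference is below the spot noise, and with the deposited series table its log2 ratio was 0.16 at both times. Over the 14247 genes measured on all 4 arrays the median of this difference was 0.01 and 51.2% were above 0. TAC hearts at 8 weeks compared directly with those at 2 weeks had all 9 genes higher, with a median of 0.41 beside 0.03 over 14756 genes, of which 54.5% were above 0. This comparison uses the same TAC arrays as the ratios above and is not independent of them. The log2 ratios ranged from 0.05 for Cryab to 2.44 for Hspa1a. Hsph1 (0.83), Hspb8 (0.77) and Dnajb1 (0.77) followed Hspa1a in that comparison, while Hspb6 had 0.24 and Hspb7 0.31. Over the 3 log2 ratios of a gene (TAC over sham at each time, and the later over the earlier sham), Hspb6 and Hspb7 were the closest of the 36 pairs of measured genes, at a Euclidean distance of 0.103, where the median pair lay 0.614 apart. Hspb1 lay 0.239 from Hspb6 and 0.236 from Hspb7, whereas Hspa1a lay up to 2.37 from the others. With 4 arrays these distances describe likeness and nothing further.

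A list of 14 immediate early genes, which respond within minutes to injury and other stimuli, was read beside these values. Between the sham arrays 11 of the 13 measured on both were higher at 8 weeks, with a median log2 ratio of 0.21, beside 56.0% of all genes and a median of 0.02. Atf3, a stress-inducible transcription factor that was part of that list, was 2.37-fold higher (1.25), in the direction of Hspa1a. Fos lay the other way, at -0.47. After TAC the immediate early genes had a median of 0.34 at 2 weeks and 0.54 at 8 weeks, and Atf3 was 3.67-fold higher at 8 weeks. The summed signal of the list was 62.5 and 74.6 in the sham hearts and 76.7 and 119.7 after TAC, at 2 and 8 weeks. The Nr4a1 probe alone made up 25.6 and 32.3 of these sums in sham and 32.4 and 59.9 after TAC. The part of the immediate early genes in the higher Hspa1a and Hsph1 signals at 8 weeks was not tested. With 1 pool of RNA per condition, age, time after surgery and differences between the pools of mice cannot be told apart here.

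By the same distance, the genes most like Hspa1a and Hspb8, the 2 with the widest range over the 4 arrays (2.78 and 0.92), were sought among 14247 genes. For Hspa1a the nearest were Fmod at 0.895, Usp22 at 1.03 and Nr4a2 at 1.09, and no gene lay within 0.5. Fmod differed between the shams by 1.62, and TAC over sham was 0.98 at 2 weeks and 0.45 at 8 weeks. For Hspb8 the nearest were Ces2c at 0.0635, Cdr2 at 0.0922 and Defb25 at 0.100, and 71 genes lay within 0.25.

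Another 86 genes were listed, which are chaperones and co-chaperones together with 6 heat shock factors and regulators and 12 genes listed for autophagy with BAG3. All had a probe and 83 were measured in each comparison. Their median log2 ratio was -0.02 at 2 weeks and 0.05 at 8 weeks, beside 0.15 and 0.49 for the 9 genes. Over 1.5-fold higher was 1 of the 83 at 2 weeks, where 4.17% of all genes were, and 5 at 8 weeks, near the 5.36% of all genes. Over 1.5-fold lower was 1 at 8 weeks, compared with 3.98% of all genes. Fkbp5, a glucocorticoid-induced co-chaperone of HSP90, was the one at 2 weeks, with signals of 3.25 in sham and 5.34 in TAC hearts. At 8 weeks it had 3.01 in sham and 7.10 in TAC hearts, which is 2.36-fold higher after TAC. No other gene of its list, the HSP90 and HSP70 co-chaperones outside the DNAJ and BAG families, passed 1.5-fold, and the median of that list was 0.03 at 8 weeks.

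Of the 12 genes listed for autophagy with BAG3, 2 were over 1.5-fold higher at 8 weeks, Flnc and Tgm2, compared with 5.36% of all genes. Flnc encodes filamin C, an actin cross-linker of the Z-disc that BAG3 and HSPB8 clear when it is damaged by strain. Its signal was 34.1 in sham and 50.7 in TAC hearts at 2 weeks, and 33.7 in sham and 64.7 in TAC hearts at 8 weeks. The sham arrays lay within 0.02 on the log2 scale, and the ratios were 0.57 and 0.94, each above that of Hspb7 and Hspb6 at the same time. Des, the gene of desmin, was 0.34 and 0.54 higher on the log2 scale, and Tgm2, a transglutaminase, was 1.20-fold higher at 2 weeks and 1.56-fold at 8 weeks. The median of the 12 genes was 0.00 at 2 weeks and 0.18 at 8 weeks.

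The gene whose probe had the highest mean signal is given for the main lists, a choice that does not rank the levels of genes. Hspa8, the constitutive HSP70, had log2 ratios of -0.08 and 0.07. Hsp90ab1, the constitutive HSP90, had -0.09 and 0.13, Hspd1, the mitochondrial HSP60, -0.18 and -0.27, Bag1 -0.08 and 0.04, Dnajc5 0.05 and -0.03, and Cdc37 -0.19 and 0.12. The 10 chaperonins had medians of 0.00 and 0.08, and none passed 1.5-fold. Of the 15 other DNAJ genes Dnajb4 was 1.52-fold higher at 8 weeks with signals of 1.46 in sham and 2.22 in TAC hearts, and no other passed 1.5-fold.

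Among the other small heat shock proteins, 5 of 6 were measured and none was over 1.5-fold higher after TAC. Cryaa, the lens crystallin, was dim on every array, between 0.0619 and 0.142, and its 2.30-fold lower signal after TAC at 8 weeks stood against a sham array that was itself 2.15-fold above the earlier one. Odf1 was well above background on no array. Heat shock factor 1, Hsf1, had signals between 5.28 and 6.05 on the 4 arrays and log2 ratios of TAC over sham of 0.07 and 0.02. Hsf5 and Hsf2bp were well above background on no array.

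**Figure D4:**
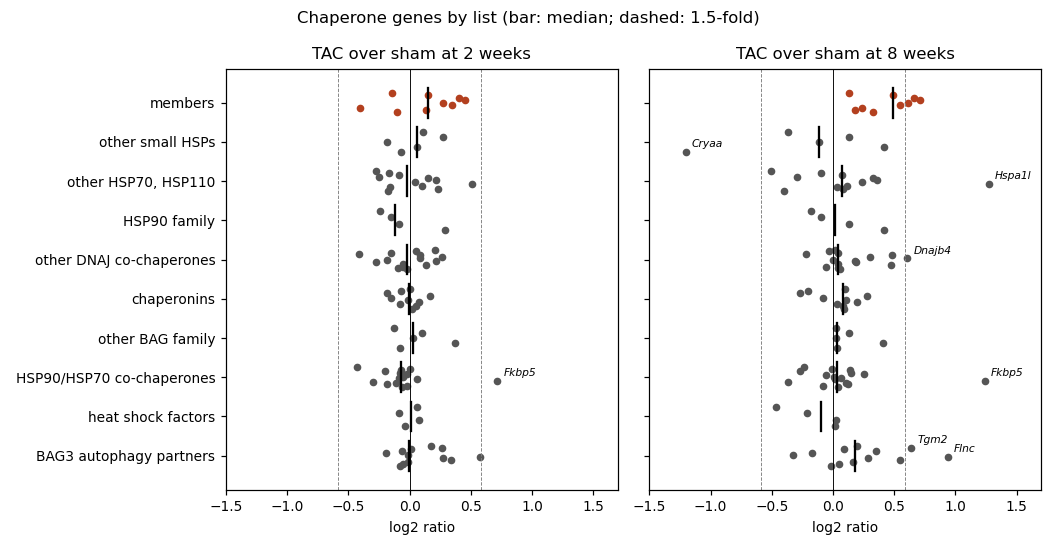
Log2 ratio of TAC over sham at 2 weeks (left) and 8 weeks (right) for each chaperone gene measured on both arrays, by list, with a bar at the list's median and dashed lines at 1.5-fold. At 8 weeks the 9 genes (top row) lie from 0.13 to 0.71 with their bar at 0.49, while the bars of the other lists lie between -0.11 and 0.18.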

How the data were processed

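Total RNA of sham and TAC mouse hearts, in pools of 4 to 6 mice, was hybridized to 4 single-color Agilent arrays, 1 per condition. The deposited files are scanner output of Agilent Feature Extraction, version 10.7.3.1 per the file headers and 9.1 in the submitters' processing notes. Their intensity per spot was background-corrected and detrended by the authors' software and not normalized between arrays. The deposited series table holds the same intensity values times 1 constant per array, with scale linear and centring absent.

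Each array was divided by its 75th percentile over 55681 probes other than controls, and each probe was given the mean log2 value of its spots, without those marked as outliers. A gene was represented by its probe with the highest mean signal, and counted in a comparison where it was well above background, for which 29358 of 32342 transcript-named probes had 1 symbol. Spot noise came from probes with 10 spots. The arrays lie on 1 slide and 1 scan, and their number limits the precision. With 1 array per condition, no test was run.

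The members and the gene lists were chosen with earlier results of these data known. The text names all members, other listed chaperones over 1.5-fold at either time, the brightest gene of each list, the hypertrophy genes and the 3 genes nearest to the 2 members of widest range. Des, Hsf1, Atf3, Fos and the genes well above background on no array were named after their values were seen, and Hspa1l was described with its neighbour. Not every gene of these rules is given.

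The array annotation uses mm9, so positions and promoters are those of RefSeq on GRCm38.p6. Alternatives were the array median, quantile normalization, no scaling, the percentile over spots, normexp with an offset of 50 (limma 3.58.1, R 4.3.3), the series table, outlier spots kept, the mean of a gene's probes, other filters, and thresholds of 1.5-fold and 3-fold. Counting was tested on simulated data. Computations used Python 3.11.15 with numpy 2.4.6, pandas 2.3.3, scipy 1.17.1 and matplotlib 3.10.9.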

Additional observations from a re-analysis of the deposited data

Results flagged for a closer look

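For 3 genes the log2 ratio of TAC over sham was below 0 at 2 weeks and above 0 at 8 weeks. The share of all genes with such a change of sign was not counted. Of all genes, 48.4% were above 0 at 2 weeks and 48.1% at 8 weeks. The ratios at 2 weeks were -0.40 for Dnajb1, -0.11 for Bag3 and -0.14 for Hsph1. The ratio at 8 weeks exceeded that at 2 weeks by 0.64 for Dnajb1, by 0.43 for Bag3 and by 0.27 for Hsph1. With a single array for each condition, the difference was not tested. For Hsph1 the second probe was above 0 at both times (0.03 and 0.19). The spot noise SD of 1 ratio is 0.0712, and it does not include the spread between pools.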

How the results depend on the processing

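The log2 ratio of TAC over sham kept its direction at both times for each of the 9 genes under the 8 alternatives to scaling, background, outlier spots, probe choice and source of values. Of 216 single-gene values, 180 stayed within the spot noise SD of 0.0712 and 36 moved further. Part of this was fixed in advance. The series table and the percentile over spots shift every gene by 1 constant per array, and all 27 values of each stayed. The mean of a gene's probes cannot move a gene with 1 probe. Scaling by the array median gave a median log2 ratio of 0.57 at 8 weeks and no scaling gave 0.65, compared with 0.49. No scaling gave 0.16 between the sham arrays, compared with 0.06. It moved the median of all genes from -0.01 to 0.16 at 8 weeks and from 0.02 to 0.12 between the shams. Scaling by the array median moved the median of all genes at 8 weeks from -0.01 to 0.08. At 8 weeks 0 genes passed 2-fold and 3 passed 1.5-fold higher, which became 4 with the array median and 5 without scaling. Between the shams Hsph1 joined Hspa1a above 1.5-fold without scaling and with the mean of a gene's probes.

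The Hspa1a ratio between the shams ran from 1.62 with normexp to 2.34 over the alternatives, and that of TAC over sham at 2 weeks from 0.14 to 0.37. The ratio at 8 weeks exceeded that at 2 weeks under each of the 8 alternatives for all genes but Cryab, for which both were 0.16 with the series table. No paired analysis was possible because each condition has 1 array, so that the groups compared share fewer than 2 replicate numbers. A fit that takes the times as repeats of 1 surgery effect was not run, and leaving out an array ends each comparison it enters. The second probes of Cryab and Hsph1 are given in the report.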
